A study of Mus musculus and Rattus norvegicus with 30 samples.

Results

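The genes followed here are 10 transcripts of the cardiac Z-disc and intercalated disc whose proteins bear, sense or buffer mechanical load: Xirp1, Xirp2, Ankrd1, Csrp3, Flnc, Nrap, Fhl1, Fhl2, Rcan1 and Myoz2. They were found by gene symbol, ignoring case, among the 32545 genes of the rat table and the 54307 genes of the mouse tables, and each of the 10 matched 1 gene in both species. All 10 passed the low-count filter in rat and in mouse.

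The series asked how heart muscle responds to agonists of the estrogen-related receptors (ERR), orphan nuclear receptors that drive genes of mitochondria and fatty acid oxidation. In the first experiment, neonatal rat ventricular myocytes (NRVM, heart muscle cells isolated from rat pups at day 3) carried 25 nM of either siRNA against ERRalpha and ERRgamma together or scramble siRNA. Each was given the pan-ERR agonist 915 at 10 µM or its DMSO vehicle for 24 h, which made 4 groups of 3 libraries: scramble vehicle, scramble 915, knockdown vehicle and knockdown 915. In the second, WT mice had transverse aortic constriction (TAC, a band on the aorta that loads the left ventricle with pressure) or sham surgery and then 6 weeks of the ERR agonist 332 by intraperitoneal injection or vehicle. Left ventricle was sequenced from 3 sham vehicle, 5 sham 332, 5 TAC vehicle and 5 TAC 332 mice, whose strain, age and sex the labels do not give. The myocytes had been cleared of fibroblasts by attachment to plastic and were cultured with bromodeoxyuridine. Nothing in the labels says whether rat replicates came from separate isolations, so p-values for the rat data measure the spread between these libraries, which may be technical.

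The Z-disc anchors actin filaments of neighbouring sarcomeres and the intercalated disc joins neighbouring myocytes, so both carry the force of each beat. Proteins bound there do more than hold: Ankrd1 and the LIM proteins Csrp3, Fhl1 and Fhl2 can bind titin or its partners and can also act in the nucleus, and Myoz2 tethers the phosphatase calcineurin, which activates NFAT transcription factors. Rcan1 binds and restrains calcineurin, and its short form is transcribed from an internal promoter that NFAT is known to activate. Ankrd1 in particular is widely used as a transcript marker of overloaded or stretched myocardium.

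Library totals ran from 12013379 to 18315341 counts in rat and from 11375894 to 16599899 estimated counts in mouse. The knockdown showed in the counts of both of its targets. Esrra lay between 169 and 229 CPM in the 6 scramble libraries and between 12.7 and 21.9 CPM in the 6 knockdown libraries, and Esrrg between 130.3 and 302 CPM and between 16.1 and 25.1 CPM. CPM here is counts scaled to a common library size with TMM factors. The cells labelled isolated cardiomyocytes held all 7 cardiomyocyte markers, with a summed level of 14394 to 15925 CPM in scramble vehicle libraries, but also all 8 fibroblast markers at 13719.9 to 14768 CPM, so the cultures were mixed. Mouse sham vehicle hearts held the 7 cardiomyocyte markers at 48613 to 51084 CPM and the 8 fibroblast markers at 540.2 to 630.3 CPM. In bulk RNA of this kind, fewer cells of a type and less RNA per cell cannot be told apart.

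RefSeq promoter windows, which run from 250 bases before to 50 bases after an annotated start, were found for 9 of the 10 genes in build GRCm38.p6, 14 windows in all. Those of Rcan1 are shown because a transcript that starts in each was followed under TAC, that of Ankrd1 because this gene had the highest level of the 10 in every rat group, and the first of Fhl1 because 2 Fhl1 transcripts start inside it, of which Fhl1-204 stood at 0 to 6.28 CPM in sham hearts and at 11.3 to 173 CPM in TAC hearts, while Fhl1-205 overlapped between them. Capitals mark NFAT core matches (GGAAAA) in Rcan1, TEAD matches (GGAATG) in Ankrd1 and a CArG box, the binding element of serum response factor, in Fhl1. Both strands were searched, and each window is printed on the strand of its gene.
Rcan1 upstream start (chr16:92466120-92466419, minus strand): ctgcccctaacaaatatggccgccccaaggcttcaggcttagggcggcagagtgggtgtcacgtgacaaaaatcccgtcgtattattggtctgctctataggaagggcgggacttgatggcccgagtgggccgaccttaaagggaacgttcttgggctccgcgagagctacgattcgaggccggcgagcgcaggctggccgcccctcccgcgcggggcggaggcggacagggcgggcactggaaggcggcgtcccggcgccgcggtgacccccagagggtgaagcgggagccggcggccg
Rcan1 downstream start (chr16:92400029-92400328, minus strand): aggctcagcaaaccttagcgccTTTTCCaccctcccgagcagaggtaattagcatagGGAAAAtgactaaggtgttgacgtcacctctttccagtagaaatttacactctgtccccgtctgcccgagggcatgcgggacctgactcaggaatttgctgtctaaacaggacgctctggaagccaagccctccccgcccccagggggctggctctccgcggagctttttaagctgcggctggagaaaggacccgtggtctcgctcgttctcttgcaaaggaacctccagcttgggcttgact
Ankrd1 (chr19:36119795-36120094, minus strand): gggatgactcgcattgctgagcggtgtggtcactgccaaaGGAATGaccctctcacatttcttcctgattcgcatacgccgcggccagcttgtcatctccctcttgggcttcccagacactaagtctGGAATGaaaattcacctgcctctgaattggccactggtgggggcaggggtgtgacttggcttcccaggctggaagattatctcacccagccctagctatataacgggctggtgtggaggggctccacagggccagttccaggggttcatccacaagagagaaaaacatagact
Fhl1 first window (chrX:56779433-56779732, plus strand): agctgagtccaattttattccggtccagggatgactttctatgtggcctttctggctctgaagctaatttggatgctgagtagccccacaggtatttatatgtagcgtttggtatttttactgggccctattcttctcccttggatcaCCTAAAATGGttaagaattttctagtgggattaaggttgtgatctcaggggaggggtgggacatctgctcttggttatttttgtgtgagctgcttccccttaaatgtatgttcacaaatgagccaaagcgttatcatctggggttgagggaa
The downstream Rcan1 window held 2 NFAT core matches, at −228 to −223 (minus strand) and −193 to −188 relative to the start, and the upstream window held 0. NFAT core letters occur in 23.4% of all 32851 mouse windows of this length. The Ankrd1 window held 2 TEAD matches, at −210 to −205 and −123 to −118, and 14.7% of all windows hold at least 1. By GENCODE vM21, Ankrd1-205, with 68.8% of Ankrd1 estimated counts in sham vehicle, starts at 36120099, just before this window. Both matches thus lie downstream of that start. Ankrd1-201, with 18.9%, starts inside the window at 36119910, and both matches lie upstream of it. The 2 Flnc windows, which overlap, each held 1 TEAD match, and it is the same site in both. A CArG box stood at −102 to −93 in the first Fhl1 window, and the second Fhl1 window held none. Both Fhl2 windows held a CArG box, at −96 to −87 and at −31 to −22, against 1.63% of all windows. The ERR site TCAAGGTCA, found in 0.423% of windows, and the shorter AAGGTCA that lies within it, found in 4.72%, were in none of the 14 windows searched. These matches describe letters in short windows and say nothing about what binds there.

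Per unit length, Ankrd1 was the most abundant of the 10 genes in all 4 rat groups. Csrp3 had the highest mean in all 4 mouse groups, but was clear of the next gene only in sham vehicle. In scramble vehicle myocytes the deposited FPKM (scaled for gene length and library size) was 935 ± 30.8 (SD, n = 3) for Ankrd1. Fhl1 followed at 374 ± 13.0, Fhl2 at 283 ± 15.9, Rcan1 at 178 ± 3.97 and Csrp3 at 117 ± 7.10 FPKM. Flnc at 108 ± 2.14 and Myoz2 at 100.4 ± 7.67 FPKM overlapped in range, while Nrap (54.8 ± 2.42), Xirp1 (36.2 ± 1.75) and Xirp2 (10.8 ± 0.293 FPKM) each stood clear of the next. In sham vehicle hearts the order differed: Csrp3 stood first at 683 ± 21.0 TPM (a share of all transcripts, SD, n = 3), then Fhl2 at 496 ± 10.7, Myoz2 at 360 ± 7.42 and Ankrd1 at 183 ± 41.9 TPM. Rcan1 was lowest at 5.24 ± 0.576 TPM, just below Flnc at 6.78 ± 0.723 TPM. The 362-base transcript Csrp3-203 held 64.3% of Csrp3 TPM in sham vehicle but only 15.6% of its estimated counts. The longer Csrp3-201 (877 bases) held 35.1% of the TPM, so the first place of Csrp3 depends on the short transcript. Under TAC vehicle the mean of Ankrd1 stood next after Csrp3 at 1232 ± 843 TPM (SD, n = 5), with overlapping ranges. Apart from shares of transcripts within a gene, TPM was used only for the order of genes within a group. The reason is that the spread of TPM within a group was wide even for genes steady in CPM: Csrp3 in TAC vehicle was 972 ± 78.5 CPM against 1297 ± 515 TPM.

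Loss of ERRalpha and ERRgamma in vehicle-treated myocytes lowered Rcan1 more than any other of the 10 genes. Rcan1 (rn6 chromosome 11, 32539683 to 32550539) measured 393, 377 and 395 CPM with scramble siRNA, against 178, 159 and 172 CPM after knockdown. The groups did not overlap, and the level fell by 1.20 on the log2 scale (SE 0.06, edgeR quasi-likelihood test, adjusted p = 3.08e-14). Smaller falls were called for Fhl2 (log2 −0.46, SE 0.06), a LIM-only partner of titin, for Xirp1 (−0.46, SE 0.10), an actin-binding Xin-repeat protein of the intercalated disc, for Nrap (−0.30, SE 0.06), which links actin to the cell junction, and for Flnc (−0.25, SE 0.06), which crosslinks actin at the Z-disc.

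The calcineurin tether Myoz2 rose from 126, 108 and 123 CPM to 159, 158 and 159 CPM (log2 0.41, SE 0.08, adjusted p = 0.00133). Xirp2, the larger Xin-repeat gene, rose from 129.5, 129.8 and 135 CPM to 167, 152 and 161 CPM (0.28, SE 0.07). Knockdown thus moved Xirp2 against Xirp1 and Myoz2 against Rcan1. Ankrd1 (−0.14, SE 0.06, adjusted p = 0.0863), Csrp3 (−0.08, SE 0.20) and Fhl1 (−0.08, SE 0.05) were not called. In all, 2 of the 10 genes were higher and 5 lower, where 20.4% of the 15181 rat genes tested were called in either direction. Ankrd1 was called in 4 of 18 alternative fits, with adjusted p from 0.00987 to 0.268. The summed cardiomyocyte markers lay between 9640.4 and 10003 CPM in the knockdown vehicle libraries, below scramble vehicle, with 5 of 7 markers called lower. Their part in these changes was not tested.

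The agonist 915 raised most of these genes in cells that kept ERRalpha and ERRgamma. Xirp2 (rn6 chromosome 3, 53563194 to 53658132) went from 129.5, 129.8 and 135 CPM in scramble vehicle to 479.6, 458 and 483 CPM in scramble 915, a log2 change of 1.85 (SE 0.07, edgeR adjusted p = 1.30e-14). Rcan1 went from 393, 377 and 395 CPM to 901, 882 and 898 CPM (1.20, SE 0.06, adjusted p = 1.28e-14). For both genes every 915 library lay above every vehicle library, and the means differed by 3.60-fold and 2.30-fold. Such separation was seen for 9 of the 10 genes and for 27.3% of all genes.

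Of 4 genes whose proteins can bind titin or its partners, Ankrd1, Csrp3 and Fhl1 rose and Fhl2 was not called. Ankrd1 (rn6 chromosome 1, 254726969 to 254735548), an ankyrin-repeat protein of sarcomere and nucleus, stood at 1724, 1599 and 1690.3 CPM with vehicle and at 2923, 2986 and 3034 CPM with 915 (log2 0.83, SE 0.06, adjusted p = 2.53e-11). Csrp3, the muscle LIM protein of the Z-disc, stood at 162, 142 and 150 CPM with vehicle and at 378, 338 and 264 CPM with 915. Its 915 libraries were spread wider than those of vehicle yet all lay above them, and the log2 change was 1.11 (SE 0.20, adjusted p = 0.00173). Fhl1, a LIM-only protein that binds titin, rose by 0.32 (SE 0.05). Its relative Fhl2 stood at 325, 289 and 295 CPM with vehicle and 282, 262 and 284 CPM with 915, and missed the threshold (−0.13, SE 0.06, adjusted p = 0.0553).

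The actin-linking genes Flnc (log2 0.65, SE 0.06) and Nrap (0.55, SE 0.06) rose, as did Myoz2 (0.37, SE 0.08). Flnc was tight in both groups, at 1015, 963 and 988 CPM with vehicle and 1545, 1556 and 1557 CPM with 915. Xirp1 was not called (0.10, SE 0.10), although its 915 libraries at 233, 242 and 234 CPM lay just above vehicle at 228, 206 and 225 CPM. Thus 8 of 10 genes were called higher and 0 lower by edgeR. Over all rat genes, 42.2% were called in either direction and 21.5% higher, and the median log2 change was 0.60 for the 10 genes and 0.01 for all genes. DESeq2 also called 8 of the 10. At an unadjusted p below 0.05, 9 passed by edgeR, with no share of all genes given at that level. Fhl2 was called lower in 7 of 18 alternative fits, with adjusted p from 0.0169 to 0.310.

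**Figure D1:**
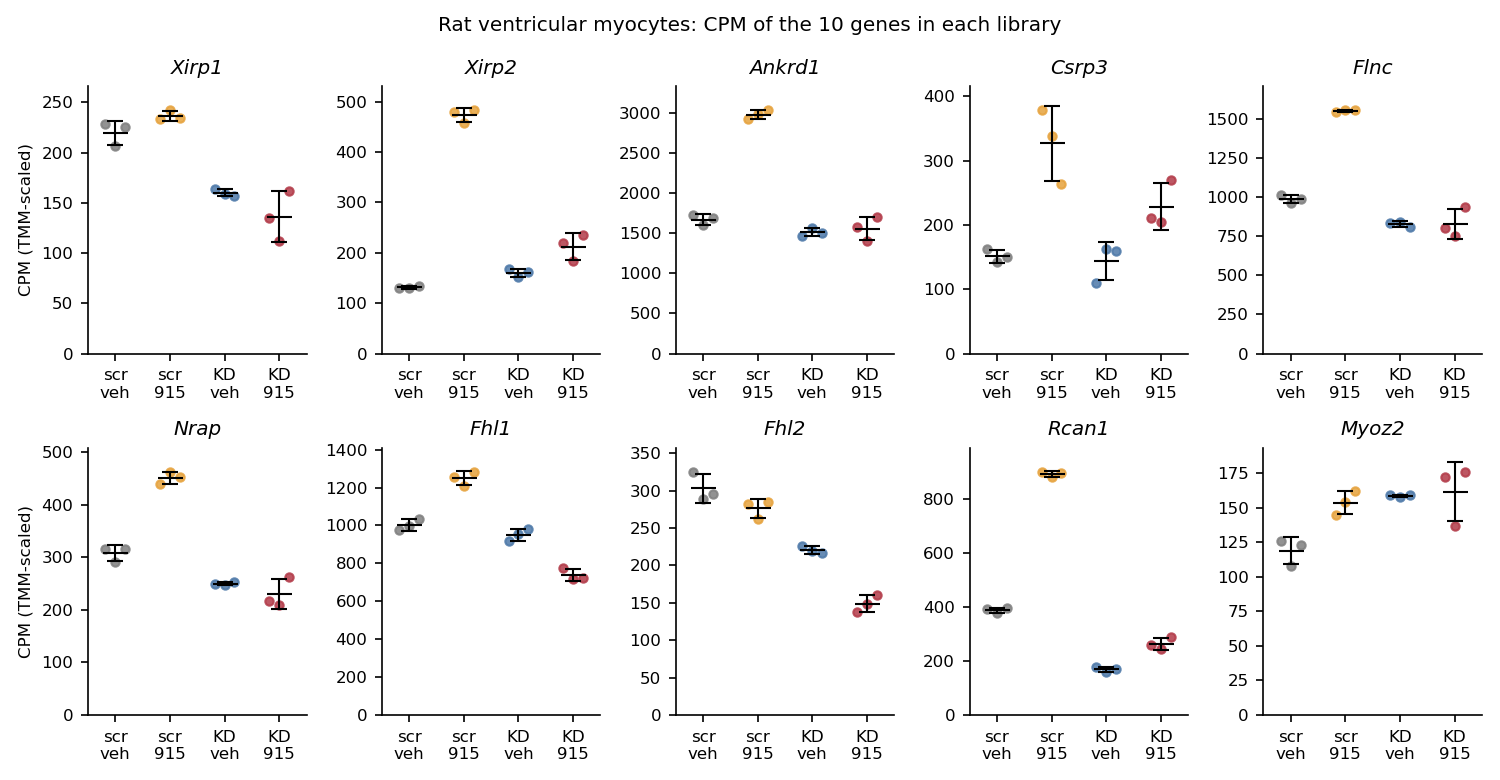
CPM (TMM-scaled, linear axes from 0) of the 10 genes in each of the 12 rat libraries. Groups are scramble (scr) or knockdown (KD) with vehicle (veh) or 915, points are libraries, and bars are the mean and SD of 3. Xirp2 lies between 458 and 483 CPM in scramble 915 and at or below 235 CPM in every other group.

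Cell composition markers moved in the same comparison. With 915 in scramble cells the summed cardiomyocyte markers rose from 14394 to 15925 CPM to 20282 to 21404 CPM, and the summed fibroblast markers fell from 13719.9 to 14768 CPM to 7580.1 to 8343 CPM. Neither list moved as one: 4 of 7 cardiomyocyte markers were called higher and 1 lower, and 1 of 8 fibroblast markers higher and 5 lower. Of all genes, 42.2% were called in either direction. Actc1, cardiac actin, rose by 0.77 (SE 0.07) on the log2 scale and Col1a1, a collagen gene, fell by 0.95 (SE 0.09), while the fibroblast gene Dcn rose by 0.37 (SE 0.08). The part of these markers in the rise of the 10 genes was not tested.

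As a signed log2 change, the 915 effect was estimated lower in knockdown than in scramble cells for all 10 genes. The difference was called for 7 of the 10 genes, which included falls as well as weaker rises. In knockdown cells Xirp2 rose only from 167, 152 and 161 CPM to 219, 183 and 235 CPM (log2 0.41, SE 0.07). The 915 effect on Xirp2 in scramble cells exceeded that in knockdown cells by 1.44 (SE 0.09, interaction test in edgeR, adjusted p = 1.30e-08), the widest gap of the 10. Ankrd1, at 1472, 1569 and 1498 CPM with vehicle and 1575, 1403 and 1700.1 CPM with 915, overlapped between the groups and was not called in knockdown cells (0.04, SE 0.06). The difference of its 915 effects was 0.79 (SE 0.08, adjusted p = 1.85e-06).

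Fhl1 reversed. It rose with 915 in scramble cells from 974, 996 and 1036 CPM to 1257, 1209 and 1283 CPM, and fell in knockdown cells from 917, 953 and 979.6 CPM to 774, 717 and 720.4 CPM (log2 −0.37, SE 0.05, adjusted p = 1.97e-06). The groups did not overlap in either pair, and the difference was 0.69 (SE 0.07, adjusted p = 1.48e-06). Fhl2 fell in knockdown cells from 226, 219 and 216 CPM to 138, 148 and 160.5 CPM (−0.57, SE 0.06), a change that differed by 0.43 (SE 0.08) from that in scramble cells.

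Nrap and Flnc, which rose in scramble cells, were not called in knockdown cells (log2 −0.12, SE 0.06, and 0.00, SE 0.06), with differences of 0.67 (SE 0.09) and 0.65 (SE 0.08). Rcan1 kept part of its response: it rose by 0.63 (SE 0.06) in knockdown cells, from 178, 159 and 172 CPM to 258, 244 and 288 CPM, with a difference of 0.57 (SE 0.08, adjusted p = 7.82e-05). Csrp3 rose in both settings (0.67, SE 0.20, adjusted p = 0.0274 in knockdown cells) and its difference of 0.44 (95% interval −0.10 to 0.98) was not called. Neither was that of Xirp1 (0.34, interval 0.05 to 0.62, adjusted p = 0.277) or Myoz2 (0.34, interval 0.12 to 0.56, adjusted p = 0.128).

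Counting the genes, 915 in knockdown cells raised 3 and lowered 2 of the 10, where 35.7% of all genes were called. The difference of the 915 effects was called for 7 of the 10, all with the larger value in scramble cells, where 3.73% of all genes were called and 1.99% in that direction. The estimate lay above 0 for all 10. Among the 7 cardiomyocyte markers 3 were called in that direction and 0 in the other. Their median difference was 0.52, against 0.61 for the 10 genes, and their part was not tested. Of 17 tested Z-disc genes outside the 10, 6 were called in that direction and 1 in the other. The call of Csrp3 in knockdown cells was lost when only the groups compared were fitted (adjusted p = 0.0855), with the replicate number as a block (0.0618) and without knockdown 915 replicate 3 (0.0966) or knockdown vehicle replicate 1 (0.0664).

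One library bears on these values. Knockdown 915 replicate 3 was the highest of its group for 9 of the 10 genes, and replicate 2 the lowest for 9. The summed cardiomyocyte markers followed the same order, at 8688, 7734 and 9915 CPM in replicates 1 to 3, and the summed fibroblast markers the reverse, at 9560.4, 11209 and 8849.9 CPM. Without replicate 3, Xirp1 (log2 −0.38, adjusted p = 6.53e-05) and Nrap (−0.23, adjusted p = 0.00134) were called lower with 915 in knockdown cells, and the difference for Xirp1 was called (0.49, adjusted p = 9.56e-04). The part of the markers was not tested.

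**Figure D2:**
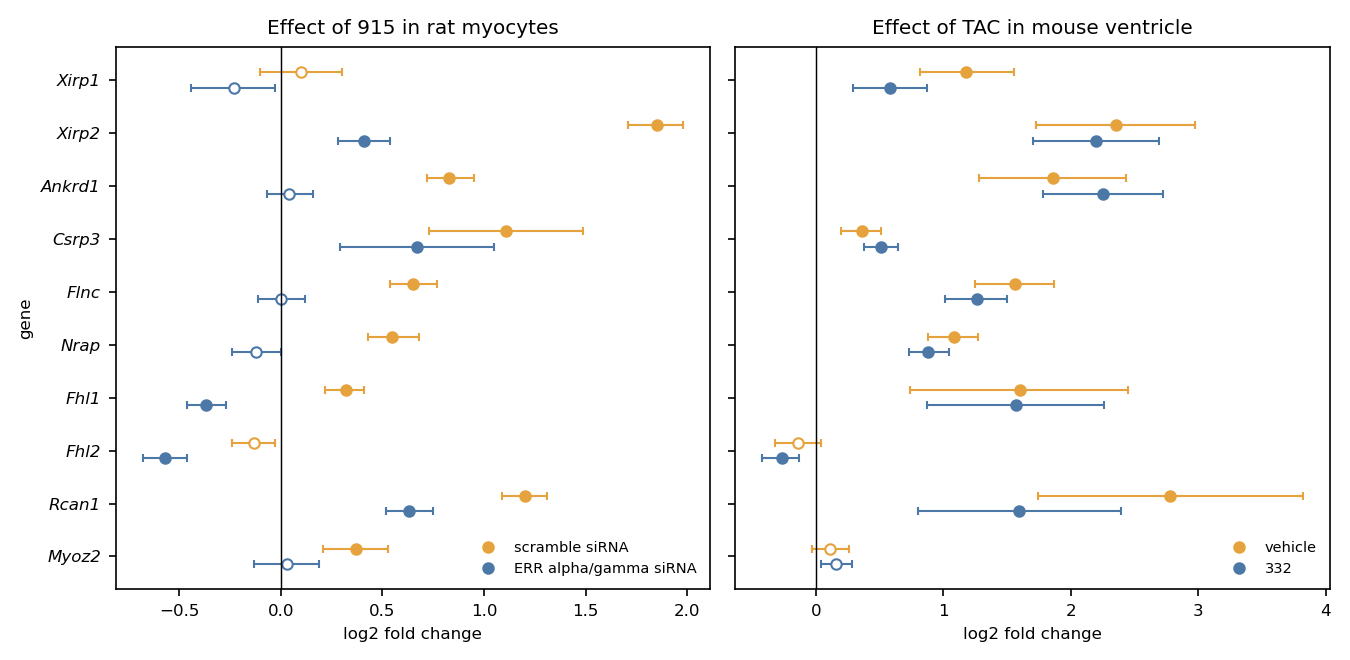
Log2 fold change (points) with its 95% interval (bars) for the 10 genes, for 915 against vehicle in scramble and knockdown myocytes (left) and for TAC against sham in vehicle and 332 hearts (right). Filled points passed the edgeR test at an adjusted p of 0.05 and open points did not. On the left, Fhl1 lies at 0.32 in scramble and −0.37 in knockdown cells. On the right, Rcan1 has the widest bars.

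Under 915 the 2 siRNA groups lay far apart. Rcan1 differed in knockdown from scramble cells by −1.76 on the log2 scale (SE 0.06), Xirp2 by −1.16 (SE 0.07), Nrap by −0.97 (SE 0.06), Ankrd1 by −0.93 (SE 0.06), Flnc by −0.90 (SE 0.06), Fhl2 by −0.89 (SE 0.06), Xirp1 by −0.80 (SE 0.10) and Fhl1 by −0.76 (SE 0.05). In all 8 the 3 knockdown libraries lay below the 3 scramble libraries, as in 22.4% of all genes. Csrp3 (−0.52, SE 0.19, adjusted p = 0.0725) and Myoz2 (0.07, SE 0.08) were not called and their groups overlapped. These 8 falls compare with 33.9% of all genes called in either direction and 17.7% called lower. All 7 cardiomyocyte markers were lower in the same comparison (median log2 change −1.58), and their part was not tested. The rat comparisons share groups with each other, so their values are given side by side and not as independent evidence.

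Calls among genes of neighbouring proteins are to be read against the 42.2% of all rat genes called in either direction for 915 in scramble cells. Of 17 tested Z-disc genes outside the 10, 6 were higher and 8 lower with 915 in scramble cells (median log2 change −0.14). Palld, an actin scaffold (−1.19, SE 0.05), and Pdlim7, a PDZ and LIM adaptor (−0.95, SE 0.06), fell, and the co-chaperone Bag3 rose (0.39, SE 0.05). Of 17 intercalated disc genes 4 rose and 4 fell (median 0.01), a share near that of all genes. Vcl, the actin anchor vinculin, fell by 0.59 (SE 0.05), and Ctnna1, alpha-catenin, rose by 0.52 (SE 0.06). Among 12 tested paralogs of the 10 genes 5 were called, also near the share of all genes. The 5 were lower, among them the filamin Flna (−0.93, SE 0.06).

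Targets of the stretch-linked factors SRF and YAP mostly fell with 915. Of 15 tested, 1 was higher and 11 lower in scramble cells (median −1.01), and 3 higher and 12 lower in knockdown cells (median −0.75). Amotl2 (−1.09, SE 0.05), the matricellular gene Ccn1 (−1.25, SE 0.06) and the tropomyosin Tpm4 (−1.12, SE 0.06) fell in scramble cells, in the comparison in which Ankrd1 rose. Of these targets Acta2, Tagln and Cnn1 are also on the smooth muscle list, and the summed smooth muscle markers stood at 5881 to 5952 CPM with vehicle and 3329 to 3742 CPM with 915, with their part not tested. Among 11 calcineurin and NFAT genes 3 were called, a smaller share than the 42.2% of all genes. They were lower, the anchoring protein gene Akap5 by −2.05 (SE 0.09), Nfatc4 by −0.90 (SE 0.07) and the catalytic subunit Ppp3ca by −0.22 (SE 0.06). These lists are described by counts and medians only.

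Pressure overload raised 8 of the 10 genes in vehicle-treated hearts. Rcan1 stood at 33.3, 35.5 and 33.3 CPM in the 3 sham vehicle hearts and at 134, 212, 316, 143 and 466 CPM in the 5 TAC vehicle hearts, a log2 change of 2.78 (SE 0.53, edgeR adjusted p = 0.00202). Xirp2 stood at 346, 356 and 297 CPM in sham and at 1087, 1745, 2464, 1499 and 2015 CPM in TAC (2.35, SE 0.32, adjusted p = 1.62e-04). Ankrd1 stood at 1335, 949 and 841 CPM in sham and at 2296, 4043, 4905, 3704 and 6267 CPM in TAC (1.86, SE 0.29, adjusted p = 4.98e-04). Every TAC vehicle heart lay above every sham vehicle heart for 9 of the 10 genes, against 14.3% of all genes, and TAC hearts differed among themselves by several fold in Rcan1.

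Fhl1 went from 76.9, 87 and 90.9 CPM to 159, 194, 474, 140.3 and 253 CPM (log2 1.60, SE 0.44, adjusted p = 0.0163). Flnc rose by 1.56 (SE 0.16), Xirp1 by 1.18 (SE 0.19), Nrap by 1.08 (SE 0.10) and Csrp3 by 0.36 (SE 0.08, 1.28-fold). The Nrap hearts were tight in both groups, at 528, 551 and 476 CPM in sham and 1079, 1073, 1092, 1178 and 1224 CPM in TAC, and gave the smallest adjusted p of the 10 (4.63e-07). Fhl2 (−0.14, SE 0.09) and Myoz2 (0.11, SE 0.07) were not called. In the same comparison 26.4% of the 14047 mouse genes tested were called in either direction and 13.5% higher, with a median log2 change of 1.37 for the 10 genes and −0.01 for all. The call of Fhl1 was lost when only the groups compared were fitted (adjusted p = 0.0720) and without any 1 of the 3 sham vehicle hearts (0.0616, 0.0535 and 0.0534 without replicates 1, 2 and 3).

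**Figure D3:**
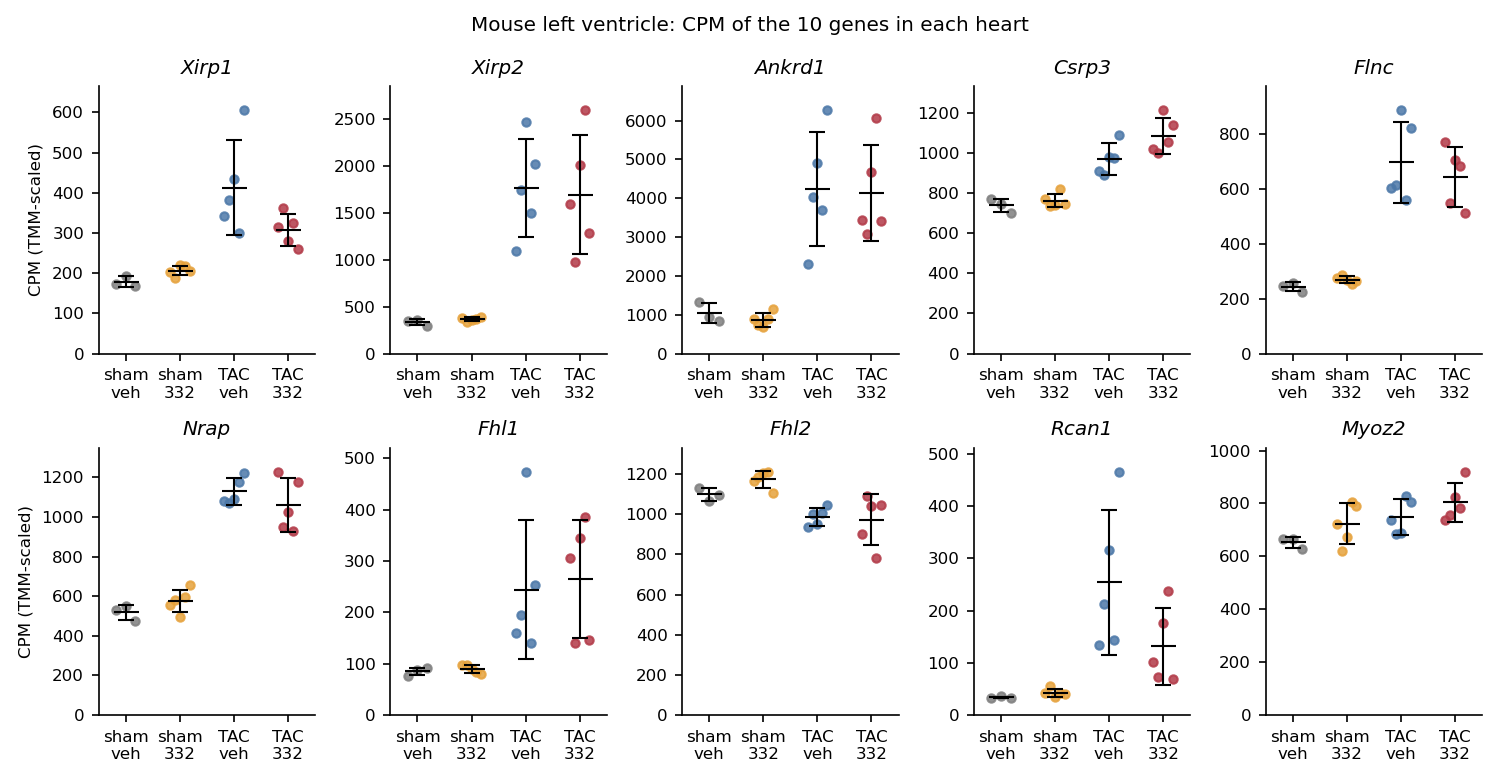
CPM (TMM-scaled, linear axes from 0) of the 10 genes in each of the 18 mouse hearts. Points are hearts, and bars are the mean and SD of 3 sham vehicle hearts and of 5 hearts in each other group. Fhl2 and Myoz2 change little, while Rcan1 runs from 69.1 to 466 CPM over the TAC hearts and stays at or below 55.6 CPM in sham hearts.

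Hearts on 332 gave a similar set of calls for TAC against sham. Ankrd1 rose from 888, 745, 676, 898 and 1136 CPM to 3445, 3072, 4665, 6067 and 3403 CPM (log2 2.25, SE 0.24, adjusted p = 2.94e-05). Xirp2 rose by 2.20 (SE 0.25), Rcan1 by 1.59 (SE 0.41, adjusted p = 0.0121), Fhl1 by 1.57 (SE 0.35), Flnc by 1.26 (SE 0.13), Nrap by 0.88 (SE 0.08), Xirp1 by 0.58 (SE 0.15) and Csrp3 by 0.51 (SE 0.07). Fhl2 fell from 1167, 1185, 1205, 1212 and 1107 CPM to 903, 1090.3, 1042, 784 and 1045 CPM (−0.27, SE 0.08, adjusted p = 0.0109), and the groups did not overlap. Here 8 genes were called higher and 1 lower, where 23.8% of all genes were called. In the 8 that rose, all TAC hearts lay above all sham hearts, as in 5.88% of all genes.

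The file names carry lane numbers, which were taken as sequencing sets, lane 1 against lanes 3 and 4, and the fits carry a term for this set. Within lanes 3 and 4 alone, all 8 genes called for TAC in vehicle were called again (Rcan1 2.71, Xirp2 2.42, Ankrd1 1.86), and sham vehicle had no library in lane 1. Over all genes, 3092 of 13694 were called there, against 3703 of 14047 in the main fit. For TAC under 332, 6 of the 9 calls held in lanes 3 and 4, and those of Rcan1 (1.41, adjusted p = 0.0604), Fhl1 (1.48, 0.0777) and Fhl2 (−0.22, 0.0914) were lost. Calls over all genes also fell, to 1662 of 13694 against 3349 of 14047 in the main fit. In that subset all 3 sham 332 hearts are in lane 3 and all other hearts in lane 4, so lane and group cannot be told apart there for TAC under 332 and for 332 in sham. With each lane as a term over all 18 hearts, a fit added after seeing the data, the 8 calls for TAC in vehicle remained, with 3333 of 14047 genes called. For TAC under 332 this fit called 5 of the 10, Ankrd1, Xirp2, Csrp3, Flnc and Nrap, and 1333 of 14047 genes. The calls of Rcan1 (1.92, adjusted p = 0.0753), Fhl1 (1.56, 0.0984), Xirp1 (0.58, 0.127) and Fhl2 (−0.27, 0.138) were lost. Lane 3 holds only sham 332 hearts, so in this fit the sham 332 level rests on the 2 sham 332 hearts in lane 1. In lane 1 alone, with 2 hearts a group, edgeR called 0 of the 10, with values such as 2.36 for Xirp2, 2.23 for Ankrd1 and 1.90 for Rcan1 (adjusted p from 0.0882 to 0.716 over the 10). Only 52 of 13869 genes were called in that fit, so few calls of any gene were made.

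Hearts after TAC differed most in the genes that rose most. Over the 10 TAC hearts the highest value was 6.74 times the lowest for Rcan1, 3.38 times for Fhl1, 2.73 times for Ankrd1 and 2.66 times for Xirp2, against 1.67, 1.27, 1.98 and 1.32 times over the 8 sham hearts. Nrap (1.32 times in TAC, 1.37 in sham) and Myoz2 (1.34 and 1.29) were as even in TAC as in sham. TAC vehicle replicate 5 was among the 3 highest of the 10 TAC hearts for 8 of the genes and TAC vehicle replicate 3 for 6, while TAC vehicle replicate 1 was never among them. Relative to the mean of the sham hearts, Rcan1 was 11.8-fold in TAC vehicle replicate 5 and 1.74-fold in TAC 332 replicate 5.

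**Figure D4:**
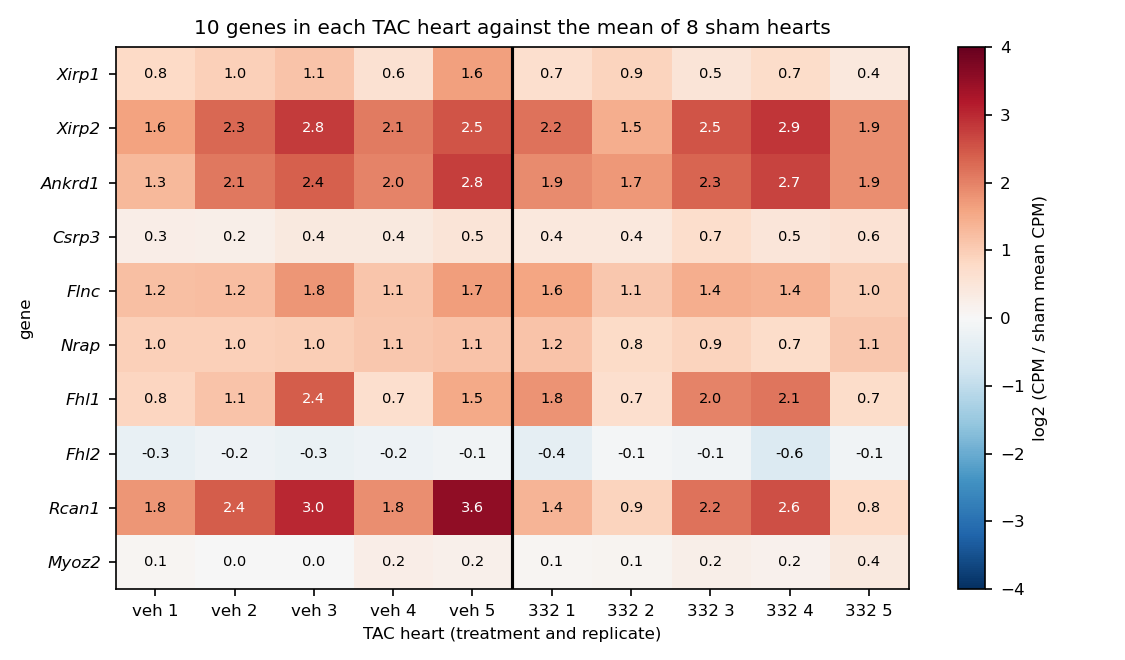
Log2 ratio of CPM in each of the 10 TAC hearts (columns, vehicle left of the line, 332 right) to the mean CPM of the 8 sham hearts, for the 10 genes (rows). Red is higher and blue lower. Xirp2, Ankrd1 and Rcan1 rows are red throughout, Fhl2 is pale blue throughout, and Rcan1 in vehicle replicate 5 is the highest cell at 3.56.

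The summed fibroblast markers rose with TAC from 540.2 to 630.3 CPM in sham vehicle to 1179.7 to 2104 CPM in TAC vehicle, with values of 1827 CPM in replicate 5 and 2104 CPM in replicate 3. In TAC 332 hearts they ran from 853 to 2456 CPM. The summed cardiomyocyte markers lay between 39649 and 50207 CPM in TAC vehicle against 48613 to 51084 CPM in sham vehicle, with 1 of 7 markers called higher and 4 lower. Skeletal muscle markers were near 0, with a sum of at most 8.65 CPM in any heart. The part of fibroblast and other markers in the rise of the 10 genes was not tested.

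Around the 10 genes, where 26.4% of all mouse genes were called in either direction and 13.5% higher, TAC raised 11 and lowered 2 of 20 Z-disc genes in vehicle hearts (median log2 change 0.36). Myot, which encodes the alpha-actinin partner myotilin, rose by 1.54 (SE 0.13) and the adaptor Sorbs2 by 0.94 (SE 0.10). Of 17 intercalated disc genes 7 rose and 4 fell (median 0.10), with the plakophilin Pkp2 at 0.37 (SE 0.08), Ctnna1 at −0.34 (SE 0.08) and the desmosomal cadherin Dsg2 at −0.83 (SE 0.19). Among 11 tested paralogs 7 were higher, led by Ankrd23, a titin-binding relative of Ankrd1, at 2.51 (SE 0.21). Of 15 SRF and YAP targets 6 were higher (median 0.57), with Acta1, skeletal actin, at 4.55 (SE 0.51) and Srf itself at 0.77 (SE 0.11). Of 11 calcineurin and NFAT genes 1 was called, below the share of all genes, the Rcan1 relative Rcan2 at 0.33 (SE 0.07). The other lists of this comparison were called at more than the share of all genes, and no list was tested.

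The 3 main Rcan1 transcripts differed in how far their estimated counts under TAC lay above sham, described here without a test. Rcan1-202, which starts at GRCm38 position 92466146 inside the upstream window printed above, held 68.8% ± 8.01 (SD, n = 3) of Rcan1 estimated counts in sham vehicle and 23.7% ± 12.8 (SD, n = 5) in TAC vehicle. Rcan1-201, which starts at 92400077 in the downstream window with the NFAT core letters, was listed at 0, 3.86 and 0 CPM in sham vehicle and stood at 61.4, 102, 171, 48.4 and 279.7 CPM in TAC vehicle. No sham vehicle heart came near the lowest TAC vehicle heart. Its share was 48.4% ± 9.81 in TAC vehicle.

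Rcan1-202 itself stood at 24.5, 21.1 and 24.4 CPM in sham vehicle and at 28.4, 42.2, 34.5, 64.6 and 98.6 CPM in TAC vehicle. Rcan1-205, with a start further upstream at 92470867, went from 8.76, 10.2 and 8.94 CPM to 44.0, 67.7, 110.4, 29.9 and 87.3 CPM. In TAC 332 hearts Rcan1-201 stood at 39.2, 22.9, 75.5, 115 and 14.0 CPM, a range that overlaps that of TAC vehicle, and in sham 332 hearts at 3.42, 9.56, 0.602, 2.03 and 4.61 CPM. These are Salmon estimates for transcripts that share exons. Which transcript leads depends on the unit: as TPM, which is scaled for transcript length, Rcan1-205 held 48.8% in sham vehicle and 48% in TAC vehicle, Rcan1-202 45.4% and 17.2%, and Rcan1-201 2.14% and 33.4%. In both units the share of Rcan1-201 was higher and that of Rcan1-202 lower in TAC vehicle, and that of Rcan1-205 was close to its sham value. Start sites were taken by transcript name from GENCODE vM21, and the build behind the deposited mouse files is not given in the sources used here.

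**Figure D5:**
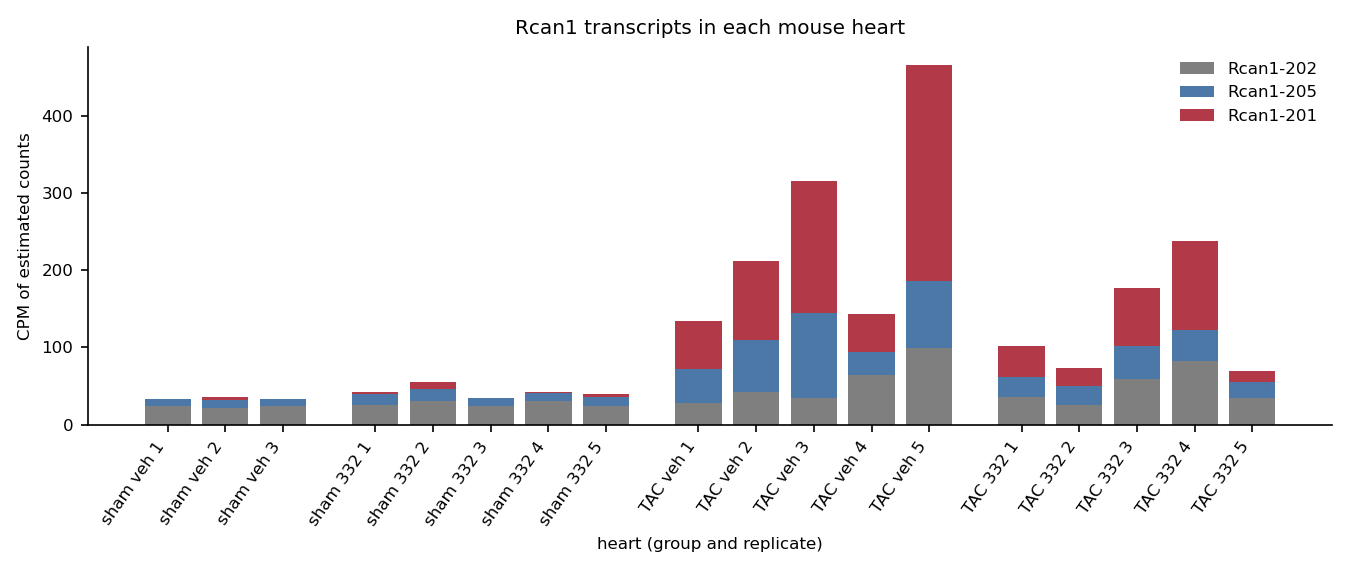
Estimated counts of the 3 main Rcan1 transcripts as CPM, stacked for each of the 18 mouse hearts. Rcan1-201 (red) is at most 9.56 CPM in any sham heart and 48.4 to 279.7 CPM in TAC vehicle hearts.

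Fhl1 showed a like pattern in one transcript. Fhl1-204, which starts at GRCm38 X position 56779723 within the printed window, was listed at 0, 0 and 6.28 CPM in sham vehicle and at 0, 0, 0, 2.11 and 0 CPM in sham 332. It stood at 43.6, 86.3, 173, 11.3 and 54.6 CPM in TAC vehicle and at 98.8, 34.5, 141, 58.2 and 17.1 CPM in TAC 332. All 10 TAC hearts lay above all 8 sham hearts, while Fhl1-201 overlapped between sham and TAC vehicle. Fhl1-205, which starts at 56779437 in the same window, also overlapped, at 0 to 41.9 CPM in sham vehicle and 0 to 111 CPM in TAC vehicle. The split between these Fhl1 transcripts varied widely within a group, for example 40.0% to 86.3% for Fhl1-201 in sham vehicle, which limits what each estimate shows.

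The agonist 332 changed none of the 10 genes past the threshold in TAC hearts. Rcan1 was 101, 73.0, 177, 238 and 69.1 CPM with 332 against 134, 212, 316, 143 and 466 CPM with vehicle, a log2 change of −0.95 (SE 0.39, 95% interval −1.71 to −0.19, edgeR adjusted p = 0.320). The groups overlapped, and 3 of the 5 hearts on 332 lay below the lowest vehicle heart. Xirp1 was 314, 362, 279.8, 325 and 259.7 CPM against 341, 381, 433, 301 and 605 CPM (−0.42, SE 0.15, adjusted p = 0.239). Csrp3 stood at 1087 ± 88.8 CPM with 332 and 972 ± 78.5 CPM with vehicle (SD, n = 5; log2 0.16, SE 0.07, adjusted p = 0.278).

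Ankrd1 (−0.03, interval −0.48 to 0.42) and Xirp2 (−0.07, interval −0.54 to 0.40) were centred near 0 with wide intervals. By edgeR and by DESeq2, 0 of the 10 were called, where edgeR called 0.427% of all genes. At an unadjusted p below 0.05, 3 of the 10 passed. The share of all genes that passed unadjusted is not given here, so such counts have no background to be read against. In sham hearts 332 also gave 0 calls by both tools and 0 at an unadjusted p below 0.05 (0.00712% of all genes called), with Ankrd1 at −0.43 (SE 0.27) and Rcan1 at 0.24 (SE 0.50). The difference between the 332 effects in TAC and in sham was called for 0 of the 10 by both tools, where edgeR called 0.0641% of all genes. It passed unadjusted for 1, Xirp1 (−0.60, SE 0.24, adjusted p = 0.375). For Rcan1 it was −1.18 (SE 0.63, adjusted p = 0.571). The mouse comparisons share hearts with each other, as the rat comparisons share libraries. Without the low-count filter, Rcan1 and Xirp1 were called for 332 in TAC and for the difference, and Ankrd1 for 332 in sham. For Ankrd1 the estimate in sham stayed at −0.43 while its SE went from 0.27 to 0.10. In TAC, Rcan1 reached an edgeR adjusted p of 2.44e-33 without the filter, in groups that overlap. These calls are therefore not read as an effect of 332.

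Likeness to other genes was measured as the root mean square difference of group mean log2 CPM over the 8 groups, centred within each species, among 7910 genes compared. Cnksr1, a scaffold of Ras signalling, was nearest to both Xirp2 (0.24) and Ankrd1 (0.14). Nppb, which encodes the natriuretic peptide BNP, was nearest to Rcan1 (0.37) and the runner-up for Xirp2 (0.29). Enah, an actin regulator of the Ena/VASP family, was nearest to both Flnc (0.11) and Fhl1 (0.14). Itgb1bp2, the integrin partner melusin, was nearest to Fhl2 (0.05), Sqstm1, an autophagy receptor, to Csrp3 (0.08), Kif5b, a kinesin, to Xirp1 (0.12) and Tor1a to Myoz2 (0.03). Genes with flat patterns, such as Myoz2, have small distances to many others: its own root mean square deviation was 0.15, against 1.0 for Rcan1 and 0.94 for Xirp2.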

How the data were processed

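Poly(A) RNA-seq tables of 12 rat and 18 mouse libraries were used as deposited. Rat values are whole-number counts and FPKM per gene per the file headers, and the submitters' processing notes list, for build rn6, the tools featureCounts 1.5.0-p3, HISAT2 2.0.5, DESeq2 1.20.0 and StringTie 1.3.3b. Mouse values are estimated counts and TPM per transcript per the file headers, and the same notes list fastp, Salmon and DESeq2. Unstranded counting cannot separate antisense reads. Mouse estimated counts were summed per gene and rounded (7.43% were not whole).

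Tests used edgeR 4.0.16 in R 4.3.3 with TMM scaling, filterByExpr (minimum count 10), the robust quasi-likelihood test and Benjamini-Hochberg adjustment over all genes at 0.05. Each species was fitted over 4 groups, the mouse with a term for sequencing set inferred from lanes in file names. Intervals are 95% (estimate ± 1.96 SE), for spread between libraries. DESeq2 1.42.0 was an alternative, and others are given at the end.

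On simulated data, 93% of genes changed by 1 on the log2 scale and 41% changed by 0.5 were recovered for 915 in scramble cells (14561 genes), and 85% and 37% for TAC in vehicle (13226 genes). Of the calls, 8 of 142 and 9 of 131 were false. The simulation gave every gene the same dispersion and no effect of sequencing set. These shares therefore do not carry over to genes as variable as Rcan1 in TAC vehicle hearts (254 ± 139 CPM, SD, n = 5).

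All 10 genes were named throughout, of each list up to 3 called genes with the smallest adjusted p, and the 2 most like genes (at least 5 CPM in both species) could be named. The genes and lists were chosen with earlier results of these data known. Cavin4, Cyr61 and Ctgf were matched as Murc, Ccn1 and Ccn2. Some results that the naming rules would include are not reported here.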

Additional observations from a re-analysis of the deposited data

Results flagged for a closer look

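For 7 genes the response to 915 differed between scramble and knockdown myocytes by an interaction test (edgeR, adjusted over all genes). The 915 effect in scramble cells minus that in knockdown cells was 1.44 for Xirp2, 0.79 for Ankrd1, 0.69 for Fhl1, 0.67 for Nrap, 0.65 for Flnc, 0.57 for Rcan1 and 0.43 for Fhl2, on the log2 scale. Fhl1 and Fhl2 stand out among them because 915 lowered both in knockdown cells. Of the 7 cardiomyocyte markers 3 also had a called difference in this direction and 0 in the other, and their part was not tested. No library stood apart from its group by Dixon's test in the 30 sets of 5 hearts tested.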

How the results depend on the processing

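Of the calls on the 10 genes, all but Fhl1 for TAC in vehicle, Csrp3 for 915 in knockdown cells and those of TAC under 332 within 1 sequencing set or with each lane as a term held in each alternative run. Without a low-count filter, 332 gave 2 calls among the 10 genes in TAC, 1 in sham and 2 for the difference, and 671, 191 and 521 calls over all genes against 60, 1 and 9, and DESeq2 gave 183, 5 and 87. For Ankrd1 in sham the estimate was −0.43 in both edgeR fits, with an SE of 0.10 without the filter and 0.27 with it. The cause was not tested. TAC under 332 gave 0 calls among the 10 genes and 52 over all genes in lane 1 alone, where 2 hearts a group remain. With each lane as a term, chosen after seeing the data, TAC under 332 gave 5 calls among the 10 genes and 1333 against 3349 over all genes, and 332 in TAC, in sham and their difference gave 40, 0 and 0 over all genes. Lane 3 holds only sham 332 hearts, so the sham 332 level in that fit rests on 2 hearts. With the replicate number as a block, 915 in knockdown cells gave 4 calls and the difference of the 915 effects 8, with the other counts as before. Same-numbered libraries did not deviate together (correlation at most 0.040 in rat and 0.056 in mouse), so the numbers are not taken to pair them. As TPM, shares were 33.4% for Rcan1-201 in TAC vehicle, 45.4%, 42.8% and 27.6% for Rcan1-202 in sham vehicle, sham 332 and TAC 332, 48.8%, 50.9%, 48% and 45.2% for Rcan1-205 and 39.0%, 37.8%, 45.0% and 36.4% for Xirp2-202 in sham vehicle, sham 332, TAC vehicle and TAC 332, and 25.3%, 54.7% and 50.5% for Xirp2-209 in the last 3 of these.

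Values that changed sign were not called in either fit. Leaving out 1 library gave −0.18 to 0.09 for Ankrd1, −0.28 to 0.11 for Xirp2, −0.15 to 0.50 for Fhl1 and −0.07 to 0.04 for Fhl2 in 332 in TAC, −0.03 to 0.04 for Csrp3 in 332 in sham, and −0.41 to 0.42 for Fhl1 and −0.43 to 0.08 for Xirp2 in the difference of the 332 effects. In rat it gave −0.02 to 0.12 for Ankrd1 and −0.04 to 0.14 for Myoz2 in 915 in knockdown cells and −0.20 to 0.09 for Csrp3 in the knockdown. For 332 in TAC, lanes 3 and 4 gave −0.06 for Fhl1 and 0.07 for Fhl2, and lane 1 gave 0.14 for Xirp2. Without the sequencing set term the difference of the 332 effects was 0.04 for Fhl1 and −0.04 for Myoz2. With each lane as a term it was −0.01 for Myoz2, and 332 in sham was −0.01 for Csrp3 and −0.15 for Rcan1. The part of depth in these calls was not tested.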

Other observations

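The main transcripts of 3 other genes had similar shares in sham and TAC vehicle. Fhl2-201 held 77.6% ± 0.139 (SD, n = 3) of Fhl2 estimated counts in sham vehicle and 76.2% ± 2.54 (SD, n = 5) in TAC vehicle. Myoz2-201 held 86.2% ± 1.49 and 84.1% ± 2.87, and Flnc-202 held 95.2% ± 7.18 and 97.6% ± 3.67. Shares of some other transcripts did not overlap between these groups. Nrap-202 held 25.0% ± 0.758 in sham vehicle and 15.2% ± 5.14 in TAC vehicle, and Xirp1-201 held 87.3% ± 0.113 and 84.3% ± 0.998. On 332 both overlapped between sham and TAC, with Nrap-202 at 21.6% ± 3.76 and 25.6% ± 8.71. For Xirp2, the long Xirp2-202 held 73.2% ± 2.90 in sham vehicle and 77.6% ± 4.55 in TAC vehicle (39.0% and 45.0% as TPM), and the much shorter Xirp2-209 was listed at 0, 90.0 and 8.39 CPM in sham vehicle and stood at 219, 338, 466, 449 and 464 CPM in TAC vehicle. On 332, Xirp2-209 overlapped between sham (0 to 97.3 CPM) and TAC (94.6 to 632 CPM). No test was run on these shares, which are Salmon estimates.

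Esrrg, which encodes ERRgamma, stood at 131, 130.3 and 131 CPM in scramble vehicle and at 263, 273 and 302 CPM in scramble 915 myocytes. In mouse hearts Esrra lay between 60.0 and 90.3 CPM and Esrrg between 23.7 and 47.7 CPM over all 18 libraries.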
